A study of Mus musculus with 22 samples.

Results

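Solute carrier genes were followed at the level of single cassette exons, exons that are either kept in or skipped from the mature mRNA, in mouse embryonic stem (ES) cells. The members were all skipped-exon events whose whole span lay inside the mm10 span of a protein-coding gene with a symbol that starts with Slc but not with Slc25. The rule found 158 events in 87 genes among 10873 events in all, and these events hold 144 different exons, since some exons are listed with more than 1 pair of flanking exons. The genome table lists 342 such protein-coding genes. The rule looked at symbols alone, so it also took in 5 events in 3 genes of the organic anion transporter family Slco, and a few proteins that carry the name without being carriers. Of these 158 events, 90 were listed in all 7 libraries, 35 only in TKO, WT or both, and 9 in 1 library. Each library lists only events with at least 100 reads, so an exon in a weakly transcribed gene is missing from that library's list.

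Solute carriers are membrane proteins that move sugars, amino acids, nucleosides, vitamins, metals and other ions across the plasma membrane and the membranes of organelles. Most of them do so without burning ATP, by letting a solute run down its own gradient or by coupling it to the gradient of another ion. ES cells are known for a high use of glucose, through the uptake carriers GLUT1 (gene Slc2a1) and GLUT3 (gene Slc2a3), and of amino acids. Skipping an exon in such a gene can shift the reading frame, remove part of a membrane-spanning segment or change the untranslated start of the mRNA.

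RNA was sequenced from 14 samples, 2 in each of 7 groups, and the series title poses the question of HP1's part in how DNA methylation acts on splicing. TKO cells lack the DNA methyltransferase genes Dnmt1, Dnmt3a and Dnmt3b, and WT cells are the R1 line. TKO HP1abg-KD cells are TKO cells given siRNAs against HP1alpha, HP1beta and HP1gamma, the 3 heterochromatin proteins that read methylated histone H3, at 80, 80 and 120 nM. WT HP1abg-KD cells received the same 3 siRNAs at 60 nM each, and WT HP1a-KD, WT HP1b-KD and WT HP1g-KD cells received 1 of them at 90 nM. RNA was taken 48 h after transfection. All groups grew without feeder cells and with leukaemia inhibitory factor. The 2 lines came from different sources per the labels (R1 from a cell bank, TKO a published line), so the loss of the methyltransferases and the origin of the line cannot be told apart. The 5 knock-down groups were transfected and sequenced as paired 101-base reads, while TKO and WT were not transfected and were sequenced as single 50-base reads. No group with a control siRNA was analysed here, so knock-down, transfection and read type cannot be told apart between these 2 sets.

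The authors pooled both replicates of a group before deposit, so there was 1 library per group, and every test compares 2 libraries and not 2 conditions. Reads over events numbered 25200437 in TKO and 25941844 in WT, and 4677236 to 9750348 in the 5 knock-down libraries. Over all exons tested, each read for skipping came with 2.99 to 3.32 reads for inclusion in the knock-down libraries, against 6.35 to 7.84 in the untransfected libraries. Of 14 ES cell marker genes 6 had an event, and their summed event reads were 2441 to 3214 RPM (reads-per-million units, out of all event reads of the library) in all libraries. Of 16 fibroblast and differentiation markers 3 had an event, with sums of 331 to 442 RPM. Most of each sum was Fn1 (289 to 433 RPM). Sox17 was listed only in TKO HP1abg-KD (17.7 RPM) and TKO (14.6). Pax6 stood at 24.3 RPM in TKO HP1abg-KD, 20.9 in TKO and 5.32 in WT, and was not listed in the WT knock-downs. The targeted genes were read through their largest event. Cbx5 (HP1alpha) stood at 42.97 RPM in WT HP1a-KD, against 105 to 113 in WT HP1b-KD, WT HP1g-KD and WT. Cbx1 (HP1beta) stood at 507 RPM in WT HP1b-KD, against 1522 and 1625 in the other 2 single knock-downs and 615 in WT. In the triple knock-downs Cbx1 stood at 551 RPM in WT HP1abg-KD and 1003 in TKO HP1abg-KD, where TKO had 659. The 1003 lies below the 1522 and 1625 of libraries of its read type without the HP1beta siRNA, but those are WT cells. Cbx3 (HP1gamma) stood at 32.2 RPM in WT HP1g-KD, against 49.6 and 52.2 in the other 2 single knock-downs and 457 in WT. Cbx3 stood at 32.2 to 52.2 RPM in all 5 knock-down libraries, targeted or not, against 480 in TKO and 457 in WT. Event reads are not comparable between single and paired reads. For the HP1 genes, a step between knock-down and untransfected libraries therefore cannot be read as a change in amount. Dnmt3b stood at 88.1 in TKO, against 562 in WT, and Dnmt3a at 33.65 in TKO, against 74.78 in WT. In the triple knock-downs Dnmt3b stood at 79.64 in TKO HP1abg-KD, against 228.8 in WT HP1abg-KD, and Dnmt3a at 26.41, against 105. Dnmt1 had no event.

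An inclusion level is the authors' estimate of the share of transcripts, from 0 to 1, that keep the exon, and each comes with the bounds of an interval. Solute carrier exons were mostly kept. The median level of the members was 0.91 in TKO and 0.89 in WT, where the median of all events was 0.71 and 0.68. In the knock-down libraries the members' median was 0.80 to 0.82 and that of all events 0.64 to 0.66. In TKO 95 member events stood at 0.8 or higher, 27 at 0.2 or lower and 32 between. In WT the same counts were 96, 27 and 29. Over the 90 members listed in all 7 libraries the distance between the lowest and the highest library had a median of 0.16, and it was under 0.1 in 26 of them (28.9%) and at least 0.5 in 8 (8.89%). Over all 6143 events listed in 7 libraries that median was 0.13, with 40.0% under 0.1 and 7.72% at 0.5 or more. The member exons had a median length of 116 nt, from 24 to 1535 nt, and 45.8% of them were a multiple of 3, so that skipping would keep the frame of a coding exon. Over all 10148 exons these values were 106 nt and 46.7%. A level is thinly supported in many members: 65 of the 158 had at least 20 distinguishing reads, those that fit inclusion alone or skipping alone, in every library.

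The events with most reads lie in glucose and nucleoside carrier genes, and most of them hardly moved in level. In Slc2a3 (GLUT3) the exon at chr6:122739833-122739993, 161 nt, was kept at 0.99 in TKO HP1abg-KD, 1.00 in TKO, 0.99 in the 4 WT knock-downs and 1.00 in WT. Its reads for inclusion and skipping were 7462 and 0 in TKO, against 6125 and 0 in WT. In Slc2a1 (GLUT1) the exon at chr4:119133097-119133259, 163 nt, was kept at 0.98 in TKO HP1abg-KD, 1.00 in TKO, 0.98 in WT HP1abg-KD, 0.97, 0.98 and 0.97 in the WT HP1a-KD, WT HP1b-KD and WT HP1g-KD libraries, and 1.00 in WT. The nucleoside carrier gene Slc29a1 (ENT1, which lets nucleosides through the plasma membrane in both directions) kept its exon at chr17:45586094-45586305, 212 nt, at 0.98 to 1.00 in all 7 libraries. A pair of exons nearer to the start of Slc2a1 were the opposite case. That at chr4:119112083-119112214, 132 nt, was at 0.00 in every library, and that at chr4:119116007-119116120, 114 nt, was at 0.01 in every library but WT, where it was at 0.04. Both share their skipping reads, since both events join the same flanking exons.

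TKO was first compared with WT, the pair in which DNA methyltransferases are missing from 1 line and both libraries have the same read type. To be called, an event needed an adjusted p no higher than 0.05 (2-sided Fisher's exact test on distinguishing reads, at least 20 in each library, Benjamini-Hochberg over all events tested) together with levels that differed by 0.1 or more. Of 108 member events tested 7 were called, or 6.48%, where 4.57% of all 7695 events tested were called. Inclusion was higher in TKO in 6 of them (3.18% of all events tested were called higher) and lower in 1 (1.39% were called lower). The median absolute difference was 0.02 for the members and 0.02 for all events. The 7 exons lay in 7 genes: 2 amino acid carriers, 1 metal carrier, 1 Golgi nucleotide sugar carrier, 1 PQ-loop protein and 2 adaptor proteins that bind carriers or exchangers.

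**Figure D1:**
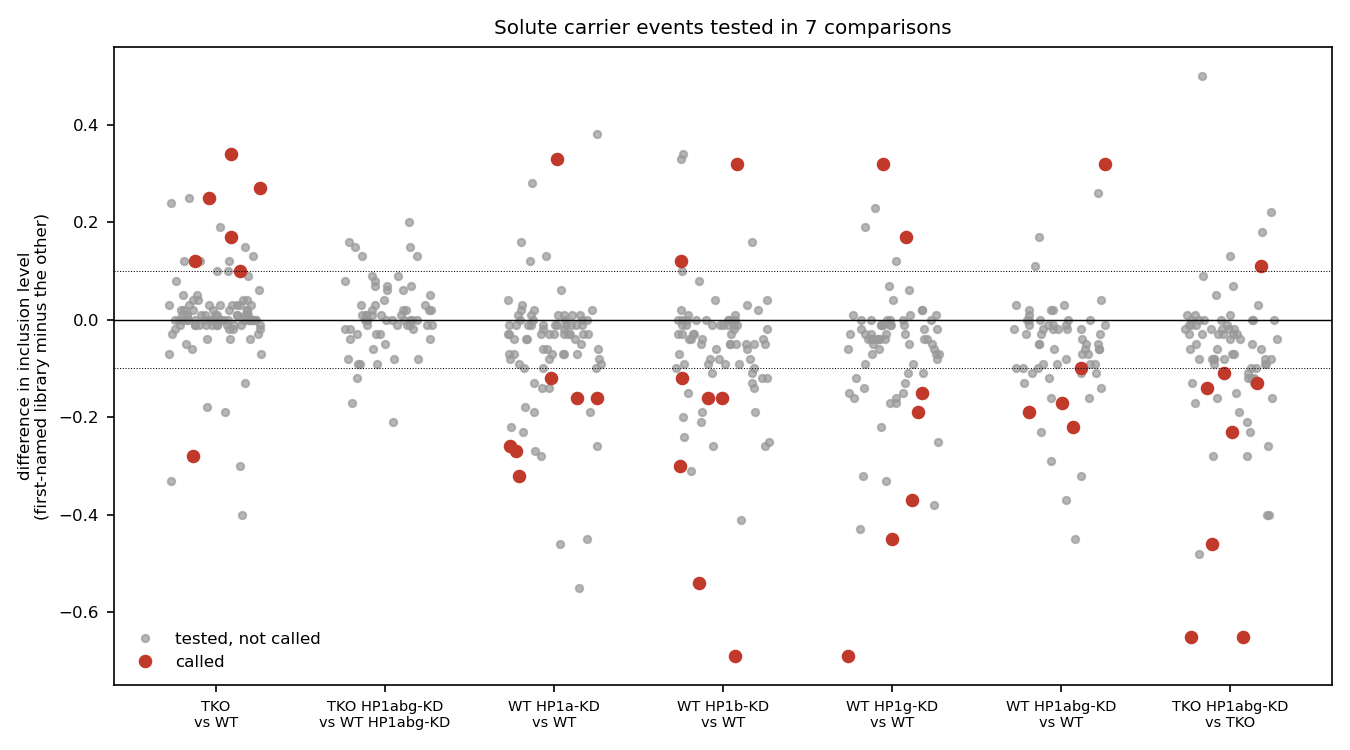
Difference in inclusion level for each solute carrier event tested in 7 comparisons, with the first-named library minus the other on the vertical axis; each dot is 1 event, red dots were called, and dotted lines mark 0.1. In TKO against WT 6 of the 7 called events lie above 0, in TKO HP1abg-KD against WT HP1abg-KD none was called, and in the 5 comparisons of a knock-down with untransfected cells most called events lie below 0.

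Slc7a3 encodes CAT3, a carrier of arginine, lysine and other cationic amino acids. Its exon at chrX:101084821-101084978, 158 nt, was kept at 0.10 in TKO HP1abg-KD, 0.33 in TKO, 0.03 in WT HP1abg-KD, 0.02 in WT HP1a-KD, 0.03 in WT HP1b-KD, 0.02 in WT HP1g-KD and 0.08 in WT. Both TKO libraries were above all 5 WT libraries, and their deposited intervals did not reach those of the WT library of the same read type. In TKO 291 reads fitted inclusion and 234 skipping, against 77 and 291 in WT (adjusted p = 3.46e-23, Fisher's exact test). Slc38a10, a family member of the sodium-coupled neutral amino acid carriers, had a smaller shift at chr11:120147721-120147838, 118 nt. The level was 0.67 in TKO HP1abg-KD, 0.95 in TKO, 0.60 in WT HP1abg-KD, 0.60, 0.57 and 0.61 in the WT HP1a-KD, WT HP1b-KD and WT HP1g-KD libraries, and 0.83 in WT. TKO had 410 inclusion and 12 skipping reads, against 255 and 23 in WT (adjusted p = 0.0273, Fisher's exact test). The call was lost, at an adjusted p of 0.0886, when the odds ratio was tested against that of exons of like length in place of 1.

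Slc39a14 encodes ZIP14, an importer of zinc, iron and manganese. Its exon at chr14:70331269-70331366, 98 nt, lies between introns of 19913 nt on the upstream side and 12328 nt on the downstream side. It was kept at 0.81 in TKO HP1abg-KD, 0.93 in TKO, 0.98 in WT HP1abg-KD, 0.99 in WT HP1a-KD, 0.98 in WT HP1b-KD, 0.98 in WT HP1g-KD and 0.66 in WT. WT alone stood low, with 149 inclusion and 43 skipping reads, where TKO had 85 and 0 (adjusted p = 1.78e-06, Fisher's exact test). In WT 43 of 192 distinguishing reads fitted skipping, and in all other libraries together there were 3, all in TKO HP1abg-KD.

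Slc4a1ap encodes kanadaptin, which binds the anion exchanger AE1 and is not itself a carrier. Its exon at chr5:31546180-31546266, 87 nt, was kept at 0.28 in TKO HP1abg-KD, 0.93 in TKO, 0.37 in WT HP1abg-KD, 0.32 in WT HP1a-KD, 0.29 in WT HP1b-KD, 0.22 in WT HP1g-KD and 0.59 in WT. TKO stood highest with 151 inclusion and 0 skipping reads, against 125 and 23 in WT (adjusted p = 1.81e-06, Fisher's exact test), and all knock-down libraries stood below both. Slc9a3r2 encodes NHERF2, a scaffold that tethers the sodium/proton exchanger NHE3 at the cell surface. Its exon at chr17:24640595-24640657, 63 nt, was kept at 0.92 in TKO HP1abg-KD, 0.96 in TKO, 0.72 in WT HP1abg-KD, 0.72 in WT HP1a-KD, 0.80 in WT HP1b-KD, 0.75 in WT HP1g-KD and 0.79 in WT. Both TKO libraries again stood above all 5 WT libraries. TKO had 213 inclusion and 4 skipping reads, against 53 and 7 in WT (adjusted p = 0.0320, Fisher's exact test), and against exons of like length the adjusted p was 0.0617.

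Slc35a1 encodes the Golgi carrier of CMP-sialic acid. Its exon at chr4:34673809-34673928, 120 nt, was at 0.24 in TKO, 0.24 in WT HP1abg-KD, 0.12 in WT HP1a-KD, 0.09 in WT HP1b-KD, 0.05 in WT HP1g-KD and 0.14 in WT, and was not listed in TKO HP1abg-KD. The reads were 17 and 8 in TKO, against 11 and 28 in WT (adjusted p = 0.0285, Fisher's exact test), but the deposited intervals of the 2 levels overlapped, and against exons of like length the adjusted p was 0.0937. Slc66a2, of the PQ-loop family, was the 1 member called lower in TKO. Its exon at chr18:80272462-80272515, 54 nt, was kept at 0.44 in TKO HP1abg-KD, 0.26 in TKO, 0.45 in WT HP1abg-KD, 0.28 in WT HP1a-KD, 0.40 in WT HP1b-KD, 0.39 in WT HP1g-KD and 0.54 in WT. TKO had 14 inclusion and 26 skipping reads, against 49 and 19 in WT (adjusted p = 0.00445, Fisher's exact test). WT stood highest and TKO lowest, with WT HP1a-KD close to TKO.

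Another 3 member events passed the adjusted p with a difference below 0.1. The skipped exon of Slc2a1 at chr4:119116007-119116120 was at 0.01 in TKO and 0.04 in WT, with 7 inclusion and 545 skipping reads in TKO, against 99 and 1157 in WT (adjusted p = 8.75e-08, Fisher's exact test). The exon at chr12:73310990-73312524 of Slc38a6, an amino acid carrier family member, is the longest of the members at 1535 nt. It was at 0.99 in TKO and 0.96 in WT (adjusted p = 0.00821, Fisher's exact test). The Slc38a10 exon at chr11:120109432-120109536 was at 0.99 in TKO and 0.96 in WT (adjusted p = 0.0268, Fisher's exact test).

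By solute, the called exons of TKO against WT lay in several classes. Over all events tested, 3.18% were called higher and 1.39% lower. Amino acid carriers had 2 called higher of 13 tested. Carriers of ions and pH regulators, with their adaptors, had 2 higher of 19, and these 2 were the adaptors Slc4a1ap and Slc9a3r2. Metal carriers had 1 higher of 11, and nucleoside and nucleotide sugar carriers 1 higher of 25. Vitamin, lipid and other carriers had 1 lower of 15. None of 11 sugar carrier events and none of 14 carboxylate and organic ion carrier events was called. The members overlap other carriers in function, and those were counted by the same test. Mitochondrial carriers (Slc25) had 2 events called higher in TKO and 0 lower of 27 tested, ABC transporters had 0 of 8, ion-pumping ATPases had 0 higher and 2 lower of 18, and V-type proton pump subunits had 0 of 4. Chloride channels of the Clcn family had 3 called higher of 5. Each of these counts was small, and none was tested against the others.

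The deposited intervals gave a second reading that does not rest on distinguishing reads alone. In TKO against WT 9 of 148 member events listed in both libraries had intervals that did not overlap and levels at least 0.1 apart, or 6.08%, where 6.21% of all 9996 events did. The read test had called 6 of these 9. The other 3 were Slc46a1, Slc16a5 and Slc29a3. Slc46a1 encodes the proton-coupled folate carrier, and its exon at chr11:78466351-78467203, 853 nt, was at 0.58 in TKO HP1abg-KD, 0.98 in TKO, 0.42 in WT HP1abg-KD, 0.29 in WT HP1a-KD, 0.49 in WT HP1b-KD, 0.36 in WT HP1g-KD and 0.74 in WT. It had 582 inclusion reads and 1 skipping read in TKO, against 254 and 4 in WT (adjusted p = 0.230, Fisher's exact test). Slc29a3 (ENT3, a nucleoside carrier of lysosomes) had its exon at chr10:60720861-60721023, 163 nt, at 0.49 in TKO HP1abg-KD, 0.51 in TKO, 0.47 in WT HP1abg-KD, 0.81 in WT HP1a-KD, 0.60 in WT HP1b-KD, 0.50 in WT HP1g-KD and 0.91 in WT. It had no skipping read in TKO or WT, with 58 inclusion reads and 3275 reads that fit both isoforms in TKO, against 105 and 3193 in WT, so the read test could not call it. Slc16a5, of the monocarboxylate carrier family, had its exon at chr11:115469233-115470148, 916 nt, at 0.57 in TKO and 0.90 in WT, and it too had no skipping read in either library. The Slc4a5 exon at chr6:83299426-83299510, 85 nt, was at 0.87 in TKO and 0.62 in WT with overlapping intervals, likewise without a skipping read in either. Where neither library has a skipping read, the read test cannot make a call, whatever the levels.

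The same 2 lines were compared after knock-down of all 3 HP1 proteins, with read type and transfection alike, though the siRNA doses differed. Of 65 member events tested in TKO HP1abg-KD against WT HP1abg-KD 0 were called, where 0.469% of all 4473 events tested were called (0.246% higher and 0.224% lower). An unadjusted p under 0.05 was reached by 4 members (6.15%), where 5.3% of all events reached it. Slc7a3 kept the direction it had in untransfected cells: 121 inclusion and 384 skipping reads in TKO HP1abg-KD, against 31 and 391 in WT HP1abg-KD (adjusted p = 1.62e-09, Fisher's exact test). Its levels of 0.10 in TKO HP1abg-KD and 0.03 in WT HP1abg-KD differed by 0.07, under the 0.1 that a call needed. Slc9a3r2 had 141 and 3 reads in TKO HP1abg-KD, against 16 and 4 in WT HP1abg-KD, with a difference in level of 0.20 (adjusted p = 0.275, Fisher's exact test). Slc39a14 had 44 and 3 reads in TKO HP1abg-KD, against 114 and 0 in WT HP1abg-KD, a difference in level of -0.17 (adjusted p = 0.664, Fisher's exact test), and it was the 1 member whose deposited intervals did not overlap with a difference of 0.1 or more. All events gave 1.29% by that reading, and the members 1.11%.

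**Figure D2:**
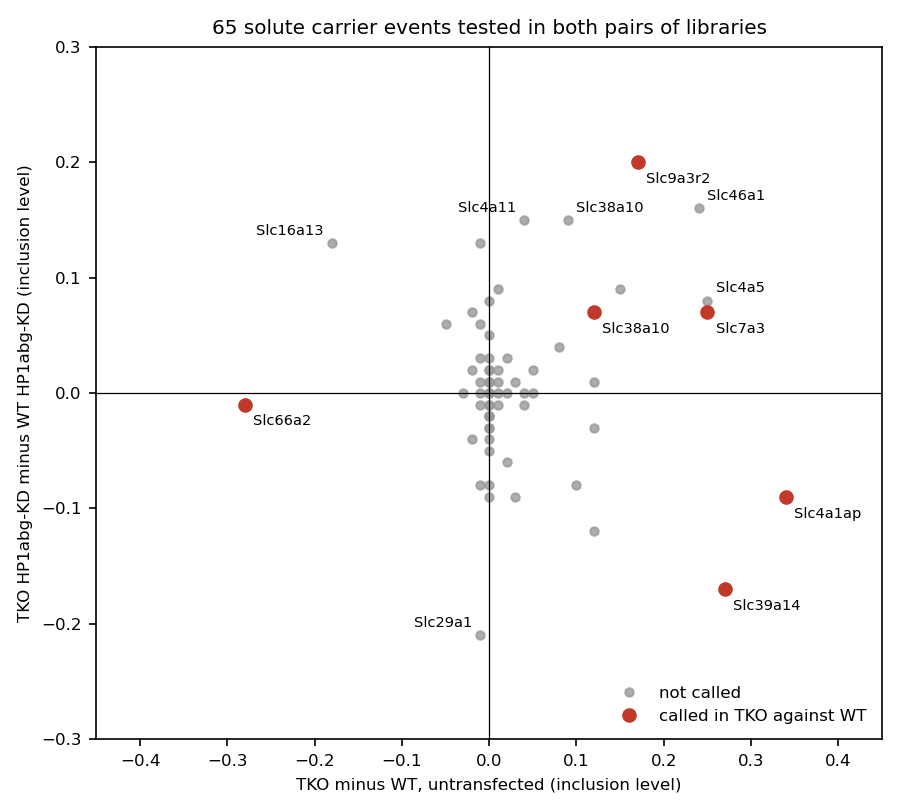
Difference in inclusion level between TKO and WT for the 65 solute carrier events tested in both pairs of libraries, untransfected on the horizontal axis and after knock-down of all 3 HP1 proteins on the vertical axis; each dot is 1 event and red dots were called in TKO against WT. Slc9a3r2, Slc7a3 and Slc38a10 lie above 0 on both axes, Slc39a14 and Slc4a1ap lie to the right and below 0, and Slc66a2 lies near 0 on the vertical axis.

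These 2 pairs share no library. Of 90 members listed in all 4 libraries, 3 differed by at least 0.1 the same way in both pairs (3.33%, where 3.83% of all 6195 events did), and 4 by at least 0.1 in opposite ways (4.44%, where 2.28% did). The 3 were Slc9a3r2, Slc46a1 and Slc39a9. Slc39a9 encodes ZIP9, a zinc carrier, and its exon at chr12:80677132-80677266 was at 0.78 in TKO HP1abg-KD and 0.65 in TKO, against 0.45 in WT HP1abg-KD and 0.52 in WT, with at most 1 skipping read in any of them. The 4 were Slc39a14, Slc7a7, Slc16a13 and Slc9a8, in which TKO minus WT was 0.27, 0.12, -0.18 and 0.10 in untransfected cells and -0.17, -0.12, 0.13 and -0.23 after the knock-down. Only Slc39a14 among the 4 was called in either pair.

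The knock-down libraries were then each compared with the untransfected library of the same line. The level of 50 of the 90 members listed everywhere was lower in all 5 knock-down libraries than in both untransfected libraries (55.6%), and this held for 47.3% of all 6143 events. By a gap of at least 0.1 it held for 19 members (21.1%), against 14.6% of all events. The opposite order, all 5 knock-down libraries higher, was seen in 3 members (3.33%, with 9.44% of all events), and in 0 members by a gap of at least 0.1 (3.29% of all events). These counts are of levels and have no test. A lower level in all knock-down libraries was the more frequent order in the whole table too.

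Called members numbered 7 of 89 in WT HP1a-KD against WT (1 higher, 6 lower), where 11.8% of all events were called (1.64% higher, 10.2% lower). There were 8 of 84 in WT HP1b-KD against WT (2 higher, 6 lower), where 11.8% of all events were (1.92% higher, 9.91% lower). They numbered 7 of 76 in WT HP1g-KD against WT (2 higher, 5 lower), where 11.4% of all events were (1.6% higher, 9.84% lower). They numbered 5 of 66 in WT HP1abg-KD against WT (1 higher, 4 lower), where 11.2% of all events were (1.83% higher, 9.37% lower), and 8 of 83 in TKO HP1abg-KD against TKO (1 higher, 7 lower), where 12.3% were (1.31% higher, 10.9% lower). The members' shares were 7.87%, 9.52%, 9.21%, 7.58% and 9.64% in that order. All 5 shares were below those of all events. The first 4 share the WT library, so a single odd value in WT enters all of them.

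**Figure D3:**
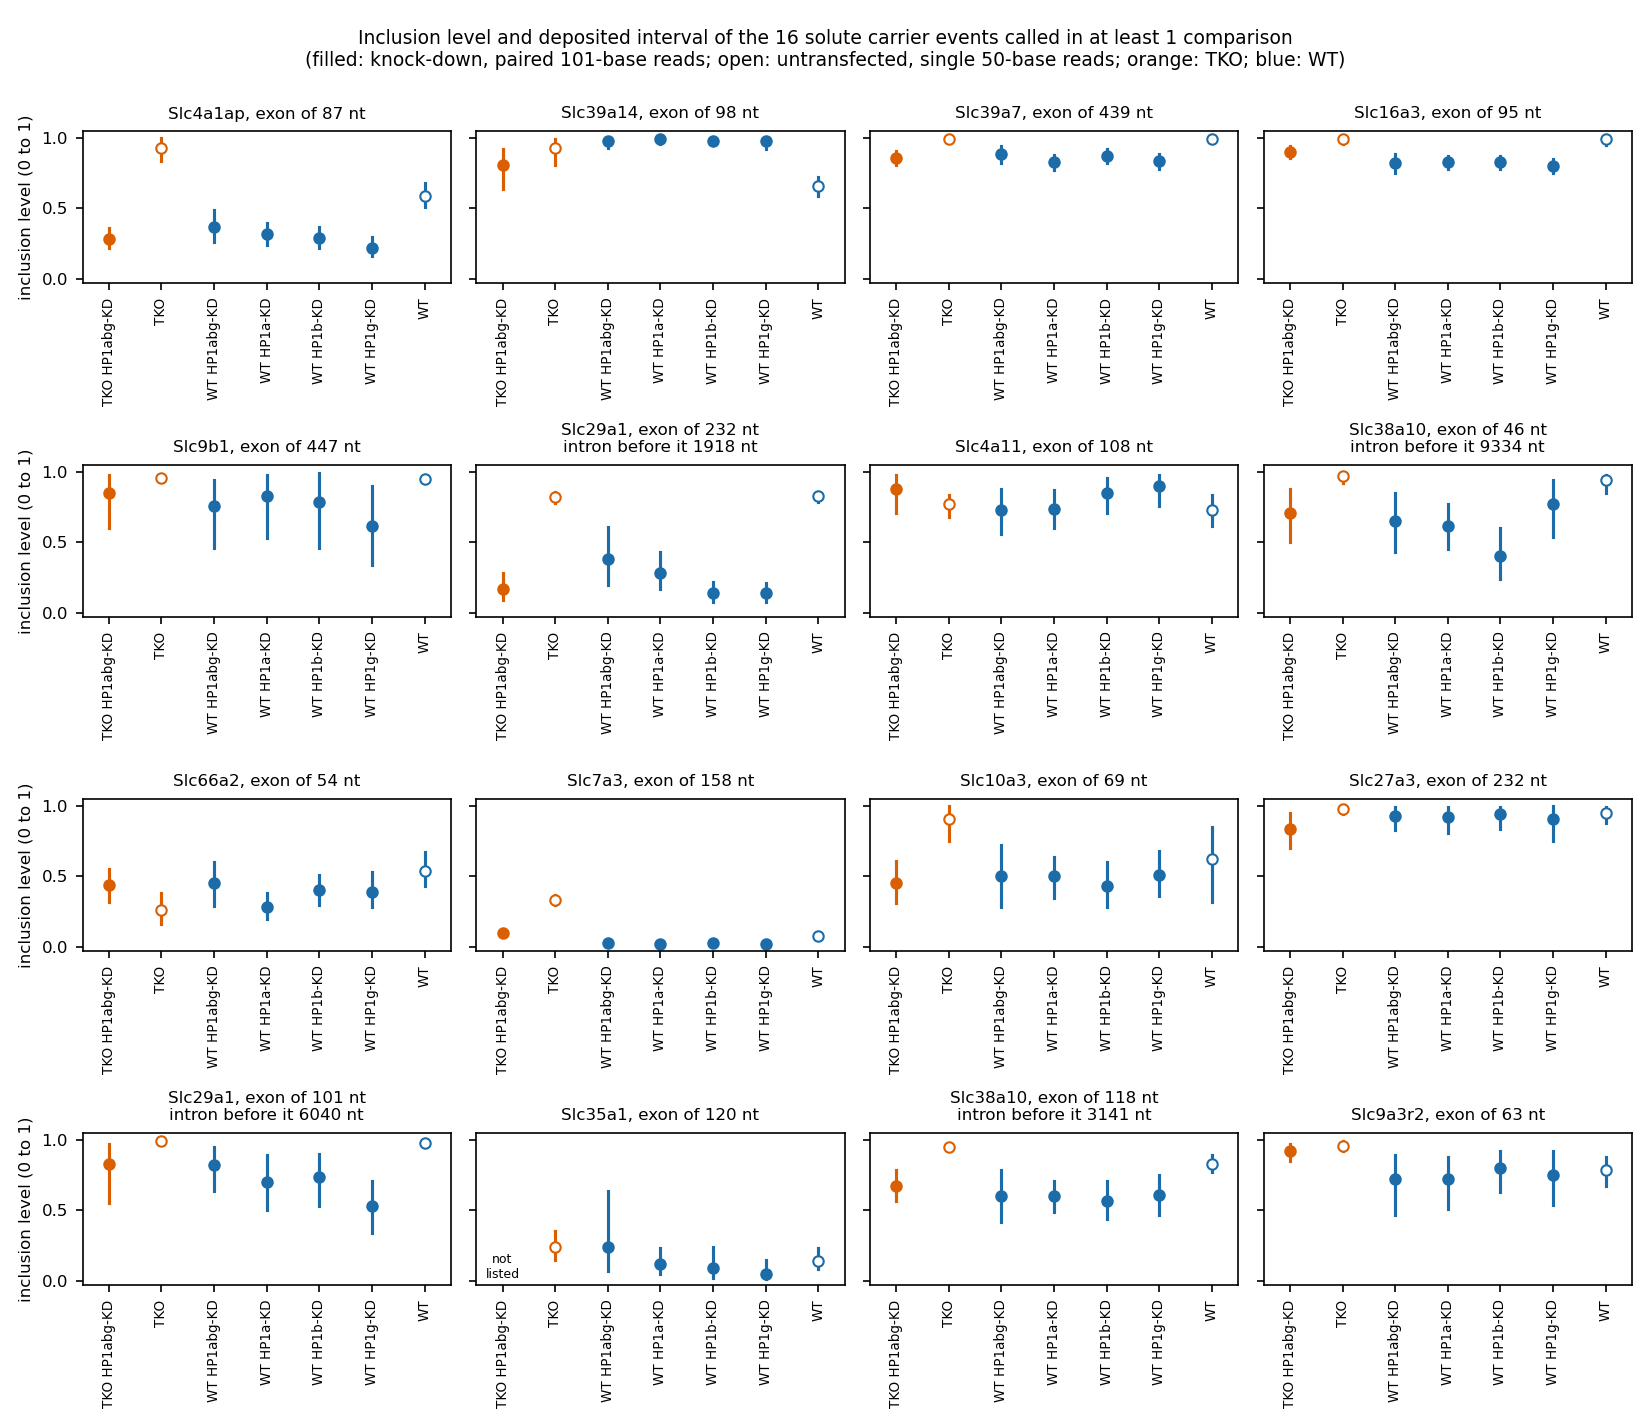
Inclusion level (dot) and deposited interval (bar) in the 7 libraries for the 16 solute carrier events called in at least 1 comparison; filled dots are knock-down libraries, open dots untransfected ones, orange TKO and blue WT. Slc39a14 is low in WT alone, Slc7a3 and Slc9a3r2 are highest in the 2 TKO libraries, and Slc4a1ap, Slc39a7, Slc16a3 and the Slc29a1 exon of 232 nt are lower in all 5 knock-down libraries than in TKO and WT.

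The Slc4a1ap exon was called lower in all 5 comparisons. Against WT the adjusted p (Fisher's exact test) was 8.96e-07 in WT HP1a-KD, 9.03e-07 in WT HP1b-KD, 3.01e-10 in WT HP1g-KD and 0.00621 in WT HP1abg-KD. In TKO HP1abg-KD 58 reads fitted inclusion and 54 skipping, against 151 and 0 in TKO (Fisher's exact test, adjusted p = 4.76e-23). Against exons of like length the call in WT HP1abg-KD was lost (adjusted p = 0.179, exact test). Slc39a14 was called higher in the 4 WT knock-downs, with adjusted p of 2.21e-15 in WT HP1a-KD, 1.93e-11 in WT HP1b-KD, 7.19e-09 in WT HP1g-KD and 1.44e-08 in WT HP1abg-KD by Fisher's exact test. It was not called in TKO HP1abg-KD against TKO, where the level was 0.81 in TKO HP1abg-KD and 0.93 in TKO (Fisher's exact test, adjusted p = 0.168).

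Slc39a7 encodes ZIP7, which releases zinc from the endoplasmic reticulum. Its exon at chr17:34030824-34031262, 439 nt, was kept at 0.86 in TKO HP1abg-KD, 0.99 in TKO, 0.89 in WT HP1abg-KD, 0.83 in WT HP1a-KD, 0.87 in WT HP1b-KD, 0.84 in WT HP1g-KD and 0.99 in WT. It was called lower in all 5 comparisons, from 8 to 28 skipping reads among 619 to 1236 in the knock-down libraries, against 0 of 1484 in TKO and 3 of 1619 in WT. Adjusted p by Fisher's exact test ran from 4.95e-07 in TKO HP1abg-KD to 0.0174 in WT HP1abg-KD, and against exons of like length it was 0.0552 in WT HP1b-KD and 0.329 in WT HP1abg-KD. Slc16a3 encodes MCT4, the lactate exporter of glycolytic cells. Its exon at chr11:120954174-120954268, 95 nt, was kept at 0.90 in TKO HP1abg-KD, 0.99 in TKO, 0.82 in WT HP1abg-KD, 0.83 in WT HP1a-KD, 0.83 in WT HP1b-KD, 0.80 in WT HP1g-KD and 0.99 in WT. It had 16 to 37 skipping reads in the WT knock-downs and none in TKO or WT, and was called lower in all 4 WT knock-downs (adjusted p from 8.88e-09 to 4.01e-06, Fisher's exact test). In TKO HP1abg-KD against TKO the difference was -0.09 and was not called.

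Slc29a1 had 12 events, the most of any member gene, over a set of exons near its start that can be joined in several ways. The exon at chr17:45593332-45593563, 232 nt, was at 0.17 in TKO HP1abg-KD, 0.82 in TKO, 0.38 in WT HP1abg-KD, 0.28 in WT HP1a-KD, 0.14 in WT HP1b-KD, 0.14 in WT HP1g-KD and 0.83 in WT with the nearest flanking exons. It was called lower in WT HP1b-KD (45 and 17 reads, against 570 and 64 in WT; adjusted p = 0.00231, Fisher's exact test), WT HP1g-KD (adjusted p = 0.00260, Fisher's exact test) and TKO HP1abg-KD against TKO (adjusted p = 0.0407, Fisher's exact test). Against exons of like length the adjusted p was 0.319, 0.409 and 0.854 in these 3, and none was called. In WT HP1abg-KD 38 inclusion and 4 skipping reads gave an inclusion share of 0.905, against 0.899 in WT, although the level was lower. The share was 0.719 to 0.859 in the other knock-down libraries and 0.887 in TKO. A shorter form of the 232 nt exon, at chr17:45593332-45593432, 101 nt, was at 0.53 in WT HP1g-KD and 0.98 in WT (adjusted p = 7.25e-04, Fisher's exact test). It was at 0.70 to 0.83 in the other knock-down libraries and 0.99 in TKO. That event has a distant upstream flanking exon, across 6040 nt. With the flanking exons of the 232 nt event, the 101 nt exon was at 0.78 in WT HP1g-KD and 0.89 in WT, and was not called. Its reads for inclusion and skipping there were 310 and 16 in WT HP1g-KD, against 701 and 64 in WT, opposite in direction to the level. Reads that fit both isoforms of these events numbered 0 or 1 in each knock-down library, against 141 in TKO and 227 in WT for the 232 nt exon.

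Slc38a10 had a second called exon, at chr11:120141600-120141645, 46 nt. It was at 0.71 in TKO HP1abg-KD, 0.97 in TKO, 0.65 in WT HP1abg-KD, 0.62 in WT HP1a-KD, 0.40 in WT HP1b-KD, 0.77 in WT HP1g-KD and 0.94 in WT. It was called lower in WT HP1a-KD (adjusted p = 0.0325, Fisher's exact test) and WT HP1b-KD (adjusted p = 0.00743, Fisher's exact test), on 6 and 5 skipping reads. With a nearer upstream flanking exon the same exon was not called, at 0.94 in WT HP1a-KD, 0.91 in WT HP1b-KD and 0.94 in WT. That event had 0 skipping reads in WT HP1a-KD and WT HP1b-KD and 7 in WT. Its level was 0.82 in TKO HP1abg-KD, 0.90 in TKO and 0.78 in WT HP1g-KD. Against exons of like length the call in WT HP1a-KD was lost (adjusted p = 0.058, exact test). Slc4a11, of the bicarbonate carrier family and known from the corneal endothelium, went the other way. Its exon at chr2:130696648-130696755, 108 nt, was at 0.88 in TKO HP1abg-KD, 0.77 in TKO, 0.73 in WT HP1abg-KD, 0.74 in WT HP1a-KD, 0.85 in WT HP1b-KD, 0.90 in WT HP1g-KD and 0.73 in WT. It was called higher in WT HP1b-KD (adjusted p = 0.0361), WT HP1g-KD (adjusted p = 0.0212) and TKO HP1abg-KD against TKO (adjusted p = 0.0399), all by Fisher's exact test, and the deposited intervals overlapped in all 3.

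Slc9b1, of the sodium/proton exchanger family, had its exon at chr3:135348327-135348773, 447 nt, at 0.85 in TKO HP1abg-KD, 0.96 in TKO, 0.76 in WT HP1abg-KD, 0.83 in WT HP1a-KD, 0.79 in WT HP1b-KD, 0.62 in WT HP1g-KD and 0.95 in WT. It was called lower by level in 4 of the 5 comparisons, but its reads went the other way: 302 inclusion and 0 skipping reads in WT HP1a-KD, against 1673 and 55 in WT. The direction of this event therefore depends on whether the level or the reads are taken. Fatty acid carrier Slc27a3 (FATP3) was called lower in TKO HP1abg-KD against TKO at chr3:90388690-90388921, 232 nt, with 0.84 in TKO HP1abg-KD, 0.98 in TKO, 0.93 in WT HP1abg-KD, 0.92 in WT HP1a-KD, 0.94 in WT HP1b-KD, 0.91 in WT HP1g-KD and 0.95 in WT (adjusted p = 0.0460, Fisher's exact test). The reads were 72 for inclusion and 4 for skipping in TKO HP1abg-KD, against 169 and 0 in TKO. The deposited intervals of these 2 levels overlapped, and against exons of like length the adjusted p was 0.227. A 210 nt form of this exon, with the same skipping reads, was at 0.91 in TKO HP1abg-KD and 0.99 in TKO and was not called. Slc10a3, of the bile acid carrier family, lies where the table also places the predicted gene Gm44504. Its exon at chrX:74372614-74372682, 69 nt, was at 0.45 in TKO HP1abg-KD, 0.91 in TKO, 0.50 in WT HP1abg-KD, 0.50 in WT HP1a-KD, 0.43 in WT HP1b-KD, 0.51 in WT HP1g-KD and 0.62 in WT. TKO HP1abg-KD had 17 inclusion and 16 skipping reads, against 21 and 0 in TKO (Fisher's exact test, adjusted p = 0.00101), and WT had too few reads for a test. Slc7a3 was called lower in TKO HP1abg-KD against TKO (adjusted p = 2.05e-23, Fisher's exact test). In the WT knock-downs its level was 0.05 to 0.06 below that of WT, where a level of 0.08 left no room for a fall of 0.1. Its share of inclusion reads was lower there too, with 31 inclusion and 391 skipping reads in WT HP1abg-KD, against 77 and 291 in WT. Slc66a2 was called lower in WT HP1a-KD against WT (31 inclusion and 45 skipping reads, against 49 and 19 in WT; adjusted p = 0.00186, Fisher's exact test).

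Whether the step from the untransfected to the triple knock-down library was alike in both lines was tested event by event (Zelen's exact test that both odds ratios are equal). The steps were WT HP1abg-KD against WT and TKO HP1abg-KD against TKO. Each spans knock-down, transfection and read type, and the siRNA doses differed between the lines. The test therefore cannot single out the knock-down. A call here needed an adjusted p of at most 0.05 alone, with no minimum difference in level. Of 65 member events tested 3 were called, where 2.69% of all 4344 events were, and 7 had an unadjusted p under 0.05. When the changes in the 2 lines also had to differ by at least 0.1, 2 members were called. The Slc4a1ap exon fell by 0.65 in TKO cells and by 0.22 in WT cells (adjusted p = 3.77e-05, Zelen's exact test). The Slc39a14 exon differed by -0.12 in TKO cells and by 0.32 in WT cells (adjusted p = 0.00226, Zelen's exact test). The rarely kept Slc2a1 exon of 114 nt differed by 0.00 in TKO cells and by -0.03 in WT cells (adjusted p = 0.00636, Zelen's exact test), a difference that rests on its level of 0.04 in WT, against 0.01 in each of the other 6 libraries. The TKO, WT and TKO HP1abg-KD values behind these 3 are those already given, and the WT library stands apart in the last 2. Slc7a3, with differences of -0.23 in TKO cells and -0.05 in WT cells, was not called (unadjusted p = 0.591, Zelen's exact test).

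No member event was called between the HP1 knock-downs in WT cells. Each single knock-down was compared with the other 2 pooled, on 89, 84 and 79 member events for HP1alpha, HP1beta and HP1gamma, and the triple knock-down in WT with the 3 single ones on 66. None was called in any of the 4, where 0, 0.0178, 0 and 0.043% of all events were, and 3, 1, 1 and 0 members had an unadjusted p under 0.05. These were 3.37, 1.19, 1.27 and 0% of the members, where 2.83, 3.01, 2.98 and 2.69% of all events had one. The deposited intervals did not separate by 0.1 or more for any member in these 4 comparisons, where 0.156, 0.0709, 0.113 and 0.0158% of all events did. These libraries were the shallower ones, with a median of 43 to 60 distinguishing reads per member event.

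Several members sat at middle levels without a call. Slc7a7 encodes y+LAT1, the light chain that carries cationic amino acids together with the heavy chain Slc3a2. Its exon at chr14:54413880-54414013, 134 nt, was at 0.35 in TKO HP1abg-KD, 0.42 in TKO, 0.47 in WT HP1abg-KD, 0.46 in WT HP1a-KD, 0.46 in WT HP1b-KD, 0.49 in WT HP1g-KD and 0.30 in WT. TKO was above WT, and TKO HP1abg-KD below WT HP1abg-KD. Slc35g1 belongs to the SLC35 family, and its exon at chr19:38400434-38400614, 181 nt, was at 0.63 in TKO HP1abg-KD, 0.80 in TKO, 0.72 in WT HP1abg-KD, 0.83 in WT HP1a-KD, 0.72 in WT HP1b-KD, 0.72 in WT HP1g-KD and 0.80 in WT. TKO and WT were equal in it. Slc17a9, the vesicular carrier that loads ATP, had its exon at chr2:180737592-180737679, 88 nt, at 0.75 in TKO HP1abg-KD, 0.96 in TKO, 0.74 in WT HP1abg-KD, 0.80 in WT HP1a-KD, 0.75 in WT HP1b-KD, 0.80 in WT HP1g-KD and 0.84 in WT, with skipping reads in WT alone (4).

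Another 3 of the uncalled events at middle levels were further forms of exons already described. The 101 nt exon of Slc29a1, with another flanking exon, was at 0.54 to 0.63 in the 5 knock-down libraries and 1.00 in TKO and WT, and its 232 nt exon, with another flanking exon, at 0.22 to 0.62 in the knock-down libraries, 0.86 in TKO and 0.93 in WT. The 118 nt exon of Slc38a10, with another flanking exon, was at 0.60 to 0.76 in the knock-down libraries, 0.98 in TKO and 0.89 in WT. No skipping read stood behind the first of these in any library, and the knock-down libraries had no read that fits both isoforms in either Slc29a1 event. Among members outside the rule for named exons, singled out after their values were seen, Slc35a5 (of the nucleotide sugar carrier family) had its exon of 68 nt at 0.34 in WT and at 0.83 to 0.87 in all other libraries, with 1 skipping read in all. Slc12a8 had its exon of 147 nt at 0.40 in TKO and 0.35 in WT, and at 0.85 to 0.90 in the 4 knock-down libraries that list it, with at most 3 skipping reads in any.

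Reads per gene were compared through the event with most reads, in RPM, as a rough measure of transcript amount with no test. In bulk RNA, fewer cells that transcribe a gene and less RNA per cell cannot be told apart. Of 81 member genes 2 were past 2-fold higher in TKO than in WT and 2 past 2-fold lower, where 7.04% of 4784 genes were (3.97% higher and 3.07% lower). The median ratio was 1.23 over the members and 1.09 over all genes. Slc38a6 had 130 RPM in TKO and 32.4 in WT, a ratio of 4.03 (95% interval of counting error 3.73 to 4.35), and no event of it was listed in the knock-down libraries. Slc9a3r2 had 273 in TKO HP1abg-KD, 95.7 in TKO, 41.9 in WT HP1abg-KD, 37.5, 41.2 and 48.6 in the WT HP1a-KD, WT HP1b-KD and WT HP1g-KD libraries, and 30.7 in WT. Slc9a3r2 was higher in TKO cells within each read type, by ratios of 3.12 (2.88 to 3.39) in the untransfected pair and 6.52 (5.62 to 7.58) in the triple knock-down pair. The reads of Slc9a3r2 were counted over the same event whose exon was kept more often in TKO, so the 2 readings are not independent.

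The genes past 2-fold lower in TKO than in WT were Slc27a2, an acyl-CoA synthetase and fatty acid carrier, and Slc52a3, a riboflavin carrier. Slc27a2 had 23.9 in TKO HP1abg-KD, 24.5 in TKO, 27.8 in WT HP1abg-KD, 49.7, 32.6 and 37.1 in the WT HP1a-KD, WT HP1b-KD and WT HP1g-KD libraries, and 53.2 in WT, a ratio of 0.460 (0.418 to 0.506) between TKO and WT. Slc52a3 had 14.7 in TKO HP1abg-KD, 6.15 in TKO, 35.9 in WT HP1abg-KD, 27.4, 27.3 and 30.5 in the WT HP1a-KD, WT HP1b-KD and WT HP1g-KD libraries, and 12.3 in WT. It was lower in TKO within each read type, by ratios of 0.499 (0.409 to 0.606) untransfected and 0.408 (0.318 to 0.522) after the triple knock-down. Counting the reads that fit at least 1 isoform in place of all event reads put 14 genes past 2-fold in place of 4, with Slc52a3 then at a ratio of 0.505.

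**Figure D4:**
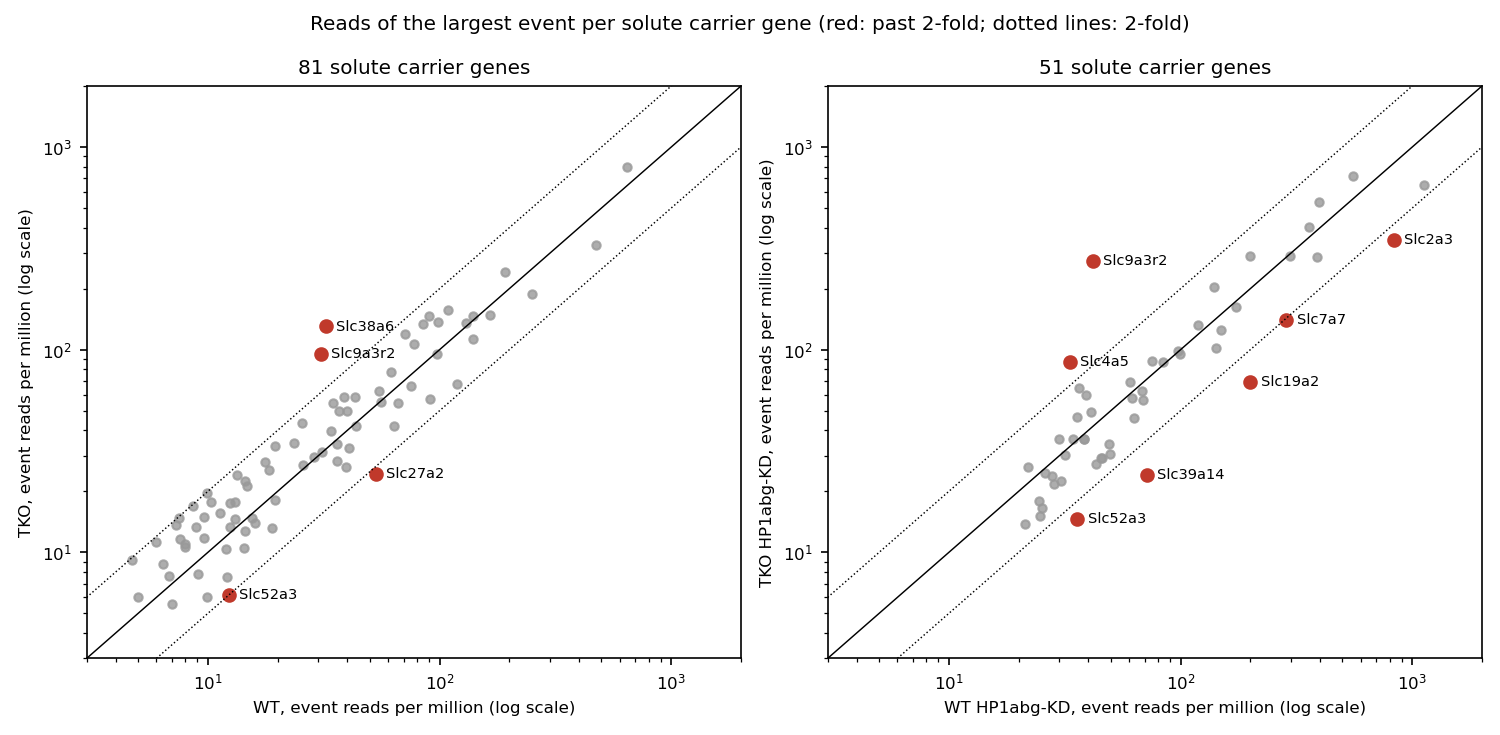
Reads of the largest event per solute carrier gene, in RPM on log scales, TKO against WT for 81 genes on the left and TKO HP1abg-KD against WT HP1abg-KD for 51 genes on the right; red dots are past 2-fold and dotted lines mark 2-fold. Slc9a3r2 lies above and Slc52a3 below the dotted lines in both panels.

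After the triple knock-down 2 of 51 member genes were past 2-fold higher in TKO HP1abg-KD than in WT HP1abg-KD and 5 past 2-fold lower, where 9.34% of 3221 genes were (2.86% higher and 6.49% lower). Beside Slc9a3r2, the sodium bicarbonate carrier gene Slc4a5 was higher, with 87.3 in TKO HP1abg-KD and 33.4 in WT HP1abg-KD, a ratio of 2.62 (2.20 to 3.14). Lower were Slc39a14, the thiamine carrier gene Slc19a2, Slc52a3, Slc2a3 and Slc7a7. Slc39a14 had 24.2 in TKO HP1abg-KD, 26.4 in TKO, 71.4 in WT HP1abg-KD, 73.7, 52.1 and 40.6 in the WT HP1a-KD, WT HP1b-KD and WT HP1g-KD libraries, and 39.4 in WT. Its ratio was 0.339 (0.281 to 0.407) in the triple knock-down pair. In the untransfected pair it was 0.669 (0.61 to 0.74), not past 2-fold. Slc2a3 (GLUT3) had 349 in TKO HP1abg-KD and 833 in WT HP1abg-KD, a ratio of 0.419 (0.398 to 0.440), while it had 797 in TKO and 643 in WT. Slc19a2 had a ratio of 0.349 (0.313 to 0.388) and Slc7a7 one of 0.491 (0.453 to 0.533) in the triple knock-down pair.

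The promoters of genes past 2-fold in TKO against WT are shown because CG dinucleotides are the sites that the missing enzymes methylate. Of the 4 genes 3 are in the RefSeq promoter table (GRCm38.p6), which gives 250 bases before and 50 bases after a gene's start. The sequences read 5′ to 3′ on the gene's strand, and capitals mark each CG, a motif that reads the same on both strands.
Slc38a6, chr12:73286598-73286897, + strand: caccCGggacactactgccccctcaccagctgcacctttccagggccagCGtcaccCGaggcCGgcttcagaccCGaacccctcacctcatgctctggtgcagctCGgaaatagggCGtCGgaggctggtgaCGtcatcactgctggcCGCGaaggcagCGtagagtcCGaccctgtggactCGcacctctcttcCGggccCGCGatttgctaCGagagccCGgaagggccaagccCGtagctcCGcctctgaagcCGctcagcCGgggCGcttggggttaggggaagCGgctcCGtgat
Slc9a3r2, start 1, chr17:24650256-24650555, - strand: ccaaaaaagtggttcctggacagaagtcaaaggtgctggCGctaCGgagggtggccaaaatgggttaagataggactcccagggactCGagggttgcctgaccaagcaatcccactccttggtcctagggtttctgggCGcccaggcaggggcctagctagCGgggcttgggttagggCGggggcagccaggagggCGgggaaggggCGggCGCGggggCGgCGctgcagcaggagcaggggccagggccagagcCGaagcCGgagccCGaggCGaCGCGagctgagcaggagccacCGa
Slc9a3r2, start 2, chr17:24644908-24645207, - strand: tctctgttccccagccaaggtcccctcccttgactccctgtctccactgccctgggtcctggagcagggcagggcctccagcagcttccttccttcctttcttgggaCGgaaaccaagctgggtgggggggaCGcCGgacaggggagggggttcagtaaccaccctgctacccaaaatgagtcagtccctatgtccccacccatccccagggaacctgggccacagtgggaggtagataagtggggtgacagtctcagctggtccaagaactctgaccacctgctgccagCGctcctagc
Slc27a2, chr2:126552774-126553073, + strand: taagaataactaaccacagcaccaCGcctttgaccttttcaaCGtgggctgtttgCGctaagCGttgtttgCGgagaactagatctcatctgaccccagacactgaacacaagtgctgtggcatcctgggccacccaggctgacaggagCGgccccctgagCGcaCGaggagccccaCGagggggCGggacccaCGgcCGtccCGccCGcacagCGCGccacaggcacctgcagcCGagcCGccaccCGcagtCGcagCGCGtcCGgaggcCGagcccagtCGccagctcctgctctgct

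Slc38a6, higher in TKO, held 26 CG in this window, and Slc27a2, lower in TKO, held 25. The 2 starts of Slc9a3r2 held 19 and 4. Over all 32851 promoters of the table the median was 7 CG, and at least 1 CG was present in 94.6%. As many CG as in Slc38a6 were found in 16.9% of all promoters, as many as in Slc27a2 in 18.4%, and as many as in the 2 starts of Slc9a3r2 in 28.1% and 68.6%. These counts describe the letters of the reference alone, and their relation to the reads was not tested. Methylation at these sites was not analysed here.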

How the data were processed

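The authors pooled the 2 replicates of each of 7 groups before deposit: per the labels, both name 1 file. Per the submitters' processing notes, RNA reads were handled with TopHat2 and Bowtie2 on mm10. Per the file headers, MISO wrote the files for skipped exons; its version, settings and exon set were not given in the sources used here. For each event the authors deposited a fraction from 0 to 1 (the inclusion level), its interval, of unstated coverage, and read counts per isoform class. Bisulfite and MNase samples were not analysed here.

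Event spans were matched to the GRCm38.p6 gene table, on either strand. Distinguishing reads, for inclusion alone or skipping alone, of 2 libraries entered a 2-sided Fisher's exact test and Benjamini-Hochberg adjustment over all events of the table with at least 20 such reads on each side (SciPy 1.17.1). A call needed an adjusted p of at most 0.05 and a difference in level of at least 0.1. Zelen's exact test was used for the dependence on the line, where a call needed the adjusted p alone. Ratios of event reads have exact 95% intervals. Calls were tested on simulated data. Alternatives were a minimum of 10 reads, a difference of 0.2, a null odds ratio taken per eighth of exon length, deposited intervals apart, and reads and level in the same direction. For event reads they were sums over events, 1.5-fold, and, chosen after seeing the data, reads that fit at least 1 isoform.

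The members and lists were chosen with earlier results of these data known. Exons described with values in all 7 libraries were those called in TKO against WT, between knock-downs or by Zelen's test, the 8 largest differences among the others called, up to 8 uncalled ones at 0.2 to 0.8 in at least 5 libraries, the 5 with most reads, and Slc39a14. Several events share an exon or skipping reads, and reads of near-identical gene copies may be split between them. P-values measure counting error between pooled libraries and not the spread between replicates.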

Additional observations from a re-analysis of the deposited data

Results flagged for a closer look

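For 3 events the step from the untransfected to the triple knock-down library differed between the 2 lines by Zelen's exact test. In Slc4a1ap the change in level was -0.65 in TKO cells and -0.22 in WT cells (adjusted p = 3.77e-05, Zelen's exact test); the knock-down libraries stood at 0.28 in TKO cells and 0.37 in WT cells, and the untransfected ones at 0.93 in TKO and 0.59 in WT. In Slc39a14 the change was -0.12 in TKO cells and 0.32 in WT cells (adjusted p = 0.00226, Zelen's exact test), and WT was the 1 library of 7 with a level below 0.8. In the Slc2a1 exon of 114 nt it was 0.00 in TKO cells and -0.03 in WT cells (adjusted p = 0.00636, Zelen's exact test), with 99 inclusion and 1157 skipping reads in WT. Each change also spans transfection and the step between read types, and the siRNA doses differed between the lines. Their part in these differences was not tested.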

How the results depend on the processing

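No paired analysis was possible because the authors pooled both replicates of each group before deposit, and for the same reason no replicate could be left out. A minimum of 10 distinguishing reads kept the number of called members within 1.5 times in all comparisons. With a difference of at least 0.2 the called members were 4 in TKO against WT (7 at 0.1), 4 in WT HP1a-KD (7), 4 in WT HP1b-KD (8), 4 in WT HP1g-KD (7), 2 in WT HP1abg-KD (5) and 4 in TKO HP1abg-KD against TKO (8). With the null odds ratio taken from exons of similar length 3 (5) were called in WT HP1abg-KD against WT, and where the deposited intervals had to be apart 5 (8) were called in TKO HP1abg-KD against TKO. Under the null by exon length the Slc9b1 exon turned to higher inclusion in WT HP1a-KD (adjusted p = 3.87e-06, exact test), WT HP1b-KD (2.37e-06), WT HP1abg-KD (0.000324) and TKO HP1abg-KD against TKO (0.000242); its reads and its level move in opposite directions. Over the 42 calls of single exons this null ended 11 and reversed 4, and requiring reads and level to move the same way ended 4. Member genes past the fold in event reads numbered 29 at 1.5-fold and 14 with reads that fit at least 1 isoform, against 4, in TKO against WT, and 17 at 1.5-fold, against 7, in TKO HP1abg-KD against WT HP1abg-KD. The cause of these changes was not tested. Events with fewer than 20 distinguishing reads in a library were not tested there, and 42 of the 158 members were tested in no comparison.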
